A study of Mus musculus with 12 samples.

Results

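Toll-like receptors are germline-encoded sensors of microbial and damaged-cell molecules, and the mouse family was followed here in whole bone marrow through its genes Tlr1, Tlr2, Tlr3, Tlr4, Tlr5, Tlr6, Tlr7, Tlr8, Tlr9 and Tlr13. The members were chosen by gene symbol, and 9 of the 10 had an array row among the 19938 genes with a single symbol, each with 1 row. Tlr5, the flagellin receptor, was not analysed here. Total RNA of marrow flushed from long bones of B6 mice was measured on 12 whole-transcript arrays, 3 in each of 4 groups. Irradiated PTH mice received a sub-lethal dose in 2 fractions of 310 cGy on day 10 of life and parathyroid hormone from day 11 to day 15. Irradiated vehicle mice received the same irradiation and vehicle on those days. Nonirradiated PTH and nonirradiated vehicle mice received the hormone or vehicle alone, and marrow of all groups was taken on day 16, so that all mice were juvenile and the irradiated groups were sampled after the 5 days of treatment.

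Each receptor has an outer leucine-rich domain that binds ligand and an inner TIR domain that recruits adaptors. Tlr1, Tlr2, Tlr4, Tlr5 and Tlr6 act mainly at the cell surface, whereas Tlr3, Tlr7, Tlr8, Tlr9 and Tlr13 sense nucleic acids in endosomes. MyD88 serves all of these receptors except Tlr3, which signals through TRIF. In marrow, myeloid cells carry most members, B cells and plasmacytoid dendritic cells are rich in Tlr9 and Tlr7, and Tlr3 is typical of conventional dendritic cells of the cross-presenting type, macrophages and stromal cells.

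The family did not move as a block after irradiation. Averaged over both treatments, Tlr3, the receptor of double-stranded RNA, rose by a log2 difference of 0.99 (SE 0.158, limma adjusted p = 0.00247), while Tlr9, the receptor of unmethylated CpG DNA, fell by 0.89 (SE 0.174, adjusted p = 0.00932) and Tlr13, which senses bacterial ribosomal RNA, fell by 0.56 (SE 0.128, adjusted p = 0.0206). The other 6 measured members did not pass the test. Within single treatments 1 of 9 members was called in each, Tlr3 in vehicle and Tlr13 in PTH mice. Of all genes 2.22% were called in vehicle mice (1.21% higher, 1.01% lower) and 2.43% in PTH mice (0.692% higher, 1.74% lower), and 13.3% and 13.4% had an unadjusted p under 0.05, against 3 of 9 members in each. PTH gave no call for any member in either irradiation state. Among all genes, 6.1% were called in the averaged comparison, 2.51% higher and 3.59% lower, against 3 of 9 members. At an unadjusted p under 0.05 it was 17.3% of all genes and 4 of 9 members. The median absolute log2 difference was 0.31 over the 9 members and 0.11 over all genes. All measured members but Tlr6 had a mean above that of the median gene (6.48), whereas the all-gene values here and below include the dimmer genes. Among the 9969 genes left without the dimmer ones, 946 were called averaged over treatments.

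The bases upstream of these 3 genes are shown because they are the members that passed a test, and because Tlr3 moved the opposite way to Tlr9 and Tlr13. They are the 250 bases before the start in RefSeq's promoter table, build GRCm38.p6, written 5′ to 3′ on the strand of the gene. Capitals mark a match to an NF-kB motif. The Tlr3 window is chr8:45410381-45410630 on the minus strand, the Tlr9 window chr9:106222348-106222597 and the Tlr13 window chrX:106143025-106143274, both on the plus strand.
Tlr3: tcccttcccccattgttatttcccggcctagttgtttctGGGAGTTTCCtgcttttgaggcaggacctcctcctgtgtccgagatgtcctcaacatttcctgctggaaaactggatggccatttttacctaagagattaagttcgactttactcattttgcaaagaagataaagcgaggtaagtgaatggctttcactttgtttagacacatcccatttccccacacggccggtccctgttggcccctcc
Tlr9: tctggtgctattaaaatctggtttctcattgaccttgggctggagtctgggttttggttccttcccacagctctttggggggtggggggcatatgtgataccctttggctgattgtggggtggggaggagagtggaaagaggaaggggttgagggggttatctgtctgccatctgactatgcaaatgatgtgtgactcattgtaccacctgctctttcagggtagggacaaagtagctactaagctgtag
Tlr13: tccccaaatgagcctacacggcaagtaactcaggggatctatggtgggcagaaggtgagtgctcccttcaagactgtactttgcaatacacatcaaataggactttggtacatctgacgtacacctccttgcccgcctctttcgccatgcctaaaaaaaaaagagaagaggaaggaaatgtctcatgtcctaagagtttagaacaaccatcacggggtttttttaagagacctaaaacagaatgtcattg

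Both strands were searched for an NF-kB consensus, an interferon-response consensus and an Ets motif of the kind bound by PU.1 (AGGAAGT), chosen after the sequences had been seen. The Tlr3 window held 1 NF-kB match, 211 to 202 bases before the start, and no exact match to the other motifs. The Tlr9 and Tlr13 windows held no exact match to any of the 3, and near matches were not searched. Among members not called, 1 of 2 Tlr1 windows held the Ets motif. Of 2 Tlr6 windows 1 held the interferon-response motif and 1 the Ets motif. The Tlr2 and Tlr8 windows held no match, and Tlr4 and Tlr7 had no window. Of 32851 windows of the same length in the table, 1.41% held the NF-kB motif, 2.98% the interferon-response motif and 7.69% the Ets motif. With motifs chosen after the windows were seen, these shares cannot say how unusual the Tlr3 match is. A match describes the letters of the window and is not a measured binding site.

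Tlr3 lay at 6.50, 7.15 and 7.36 on the log2 scale in the irradiated PTH arrays, against 6.14, 5.94 and 6.13 in the nonirradiated PTH arrays. It lay at 6.79, 7.08 and 7.53 in the irradiated vehicle arrays, against 6.22, 5.96 and 6.11 in the nonirradiated vehicle arrays. Every irradiated array was above every nonirradiated one, and the irradiated arrays were also the more spread, with SDs of 0.449 and 0.373 in the PTH and vehicle groups, against 0.113 and 0.130 without irradiation. In vehicle mice Tlr3 rose by 1.04 (SE 0.223, adjusted p = 0.0328), and in PTH mice the difference was 0.94 (SE 0.223, adjusted p = 0.0509), just above the threshold of 0.05. The averaged call held in 12 of 12 fits that left out 1 array, with differences from 0.89 to 1.11. The call in vehicle mice held in 4 of these 12 fits: adjusted p was 0.0554, 0.109 and 0.102 without nonirradiated vehicle replicate 1, 2 or 3, 0.107 and 0.139 without irradiated vehicle replicate 2 or 3, and 0.0555, 0.0502 and 0.0568 without nonirradiated PTH replicate 1, 2 or 3.

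**Figure D1:**
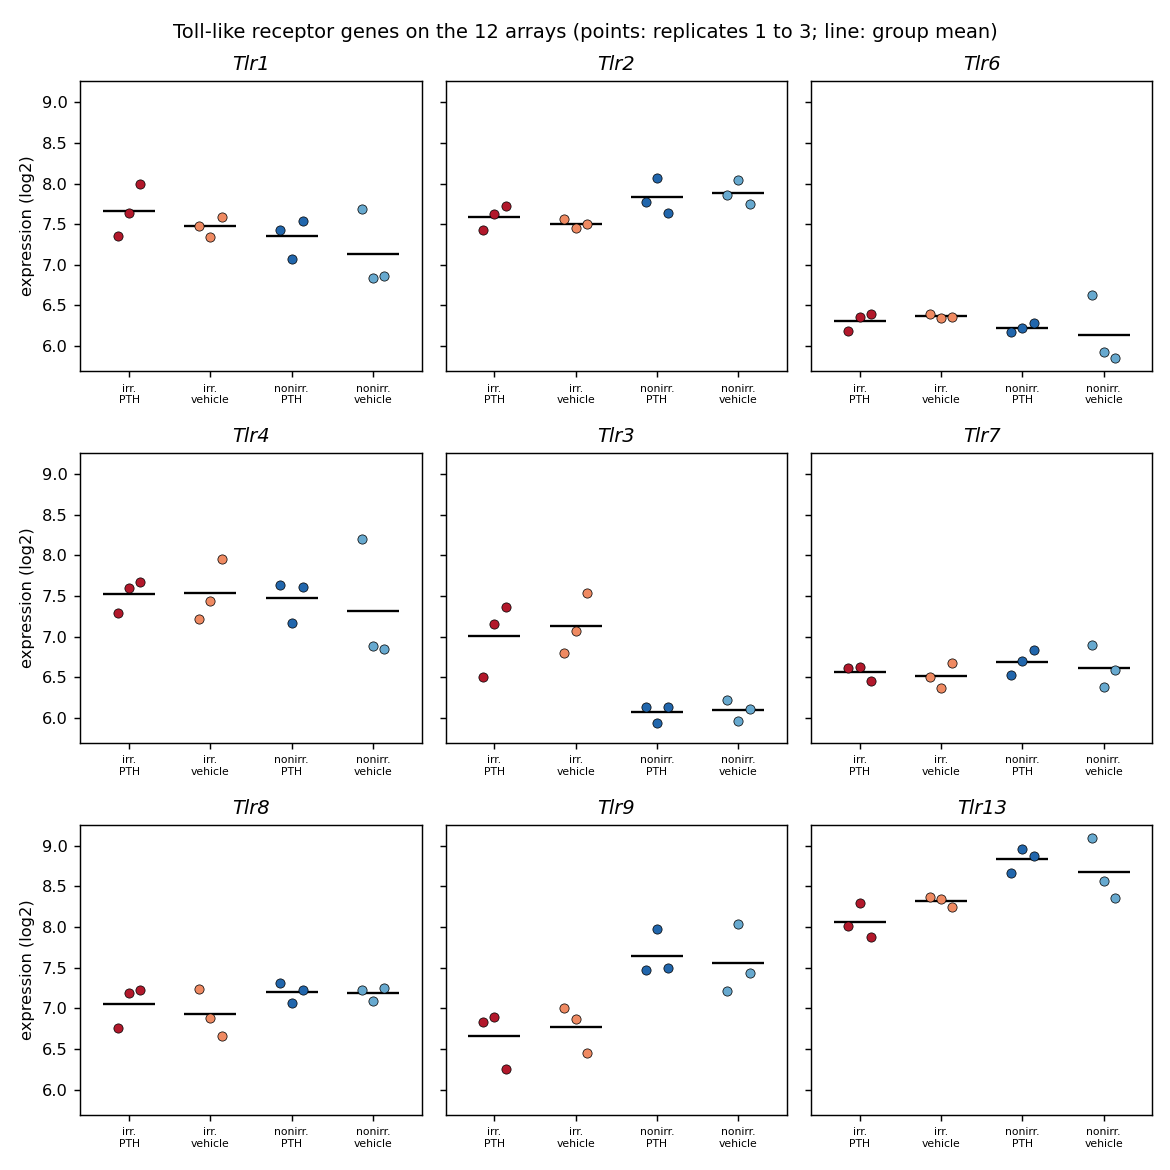
Log2 expression of the 9 measured receptor genes (vertical axis, the same in all panels) on the 3 arrays of each group (points, replicates 1 to 3 from left to right), with the group mean as a line. The 6 irradiated arrays lie above all nonirradiated ones for Tlr3 and below all of them for Tlr9.

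Tlr9 lay at 6.83, 6.89 and 6.25 in the irradiated PTH arrays, against 7.48, 7.97 and 7.49 in the nonirradiated PTH arrays. It lay at 7.00, 6.87 and 6.45 in the irradiated vehicle arrays, against 7.21, 8.03 and 7.43 in the nonirradiated vehicle arrays. All 6 irradiated arrays were below all 6 nonirradiated arrays, the reverse of Tlr3. Taken within one treatment the difference did not pass, at -0.99 in PTH mice (SE 0.247, adjusted p = 0.0622) and -0.79 in vehicle mice (SE 0.247, adjusted p = 0.151), whereas the averaged call held in 12 of 12 fits that left out 1 array, with differences from -0.97 to -0.77.

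Tlr13 lay at 8.01, 8.29 and 7.87 in the irradiated PTH arrays, against 8.67, 8.96 and 8.87 in the nonirradiated PTH arrays. It lay at 8.37, 8.35 and 8.25 in the irradiated vehicle arrays, against 9.10, 8.56 and 8.36 in the nonirradiated vehicle arrays. The groups were apart in PTH mice and overlapped in vehicle mice, where the lowest nonirradiated array reached the irradiated ones. Tlr13 fell by 0.78 in PTH mice (SE 0.181, adjusted p = 0.0468), and in vehicle mice the difference was -0.35 (SE 0.181, adjusted p = 0.444). The difference between these 2 effects did not pass (interaction -0.42, SE 0.256, adjusted p = 0.732).

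The Tlr13 averaged call was the least stable of the 3 called members. It held in 7 of 12 fits that left out 1 array, with adjusted p of 0.0565 and 0.0550 without nonirradiated PTH replicate 2 or 3, 0.0518 and 0.0557 without irradiated vehicle replicate 2 or 3, and 0.0513 without irradiated PTH replicate 1. The call in PTH mice held in 3 of 12 such fits, those without irradiated PTH replicate 2 and without nonirradiated vehicle replicate 1 or 3. Adjusted p in the other 9 ran from 0.0625 without nonirradiated vehicle replicate 2 to 0.178 without nonirradiated PTH replicate 2.

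The groups of Tlr3 and Tlr9 did not overlap in either treatment, nor did those of Tlr2 in vehicle mice and of Tlr13 in PTH mice, which made 3 of 9 members in each treatment. Over all genes 18.8% did not overlap in vehicle mice and 19.8% in PTH mice. Over all 6 irradiated and 6 nonirradiated arrays it was 2 of 9 members, Tlr3 and Tlr9, against 4.49% of all genes.

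Among the surface receptors, Tlr2, which pairs with Tlr1 or Tlr6 to bind bacterial lipopeptides, lay at 7.43, 7.63 and 7.72 in irradiated PTH arrays, against 7.78, 8.07 and 7.64 in nonirradiated PTH arrays, and at 7.56, 7.45 and 7.50 in irradiated vehicle arrays, against 7.86, 8.05 and 7.75 in nonirradiated vehicle arrays. The averaged difference was -0.31 (SE 0.0982, 95% interval -0.52 to -0.09, adjusted p = 0.0999), with adjusted p = 0.0136 when arrays were weighted by their quality. With these weights 2517 of all genes were called in this comparison, against 1216 without them. The Tlr2 groups were apart in vehicle mice and overlapped in PTH mice.

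Its partner Tlr1 lay at 7.36, 7.64 and 7.995 in irradiated PTH arrays, against 7.43, 7.08 and 7.54 in nonirradiated PTH arrays, and at 7.48, 7.35 and 7.59 in irradiated vehicle arrays, against 7.69, 6.84 and 6.87 in nonirradiated vehicle arrays. Tlr6, its neighbour on the same chromosome, ranged from 6.19 to 6.40 over the irradiated arrays, against 5.86 to 6.62 over the nonirradiated arrays. Tlr4, the lipopolysaccharide receptor, ranged from 7.21 to 7.95 over the irradiated arrays, against 6.84 to 8.20 over the nonirradiated arrays. All of these groups overlapped, and the averaged differences were 0.33 for Tlr1 (95% interval -0.03 to 0.69), 0.16 for Tlr6 (-0.11 to 0.42) and 0.14 for Tlr4 (-0.36 to 0.63), with adjusted p of 0.349, 0.621 and 0.857.

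Nonirradiated vehicle replicate 1 lay 0.89 above its group mean for Tlr4, 0.56 for Tlr1 and 0.49 for Tlr6, and also 0.42 for Tlr13 and 0.28 for Tlr7, and it lay 0.35 below for Tlr9. Without it, the irradiation difference in vehicle mice was 0.62 in place of 0.34 for Tlr1 (adjusted p = 0.147), 0.67 in place of 0.22 for Tlr4 (adjusted p = 0.172) and 0.47 in place of 0.23 for Tlr6 (adjusted p = 0.0685). The Tlr13 difference without it was -0.14 in place of -0.35. None of these passed, with or without the array.

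**Figure D2:**
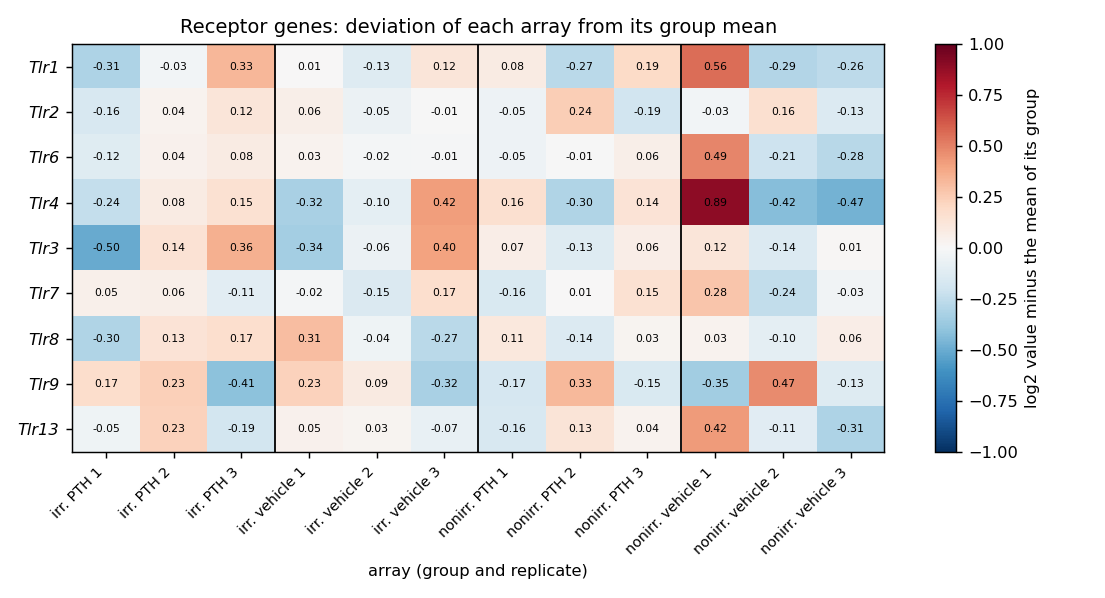
Log2 value minus the mean of its group for each receptor gene (rows) on each of the 12 arrays (columns, group and replicate, with lines between groups), as colours and numbers. Nonirradiated vehicle replicate 1 lies 0.89 above its group for Tlr4 and 0.56 above for Tlr1, and within the irradiated groups Tlr3 is lowest in replicate 1 (-0.50 with PTH and -0.34 with vehicle).

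The remaining endosomal members Tlr7 and Tlr8, neighbouring X-linked receptors of single-stranded RNA and its breakdown products, did not pass in any comparison. Tlr7 ranged from 6.37 to 6.68 over the irradiated arrays, against 6.38 to 6.89 over the nonirradiated arrays, with an averaged difference of -0.12 (95% interval -0.35 to 0.12, adjusted p = 0.692). Tlr8 ranged from 6.66 to 7.24 over the irradiated arrays, against 7.07 to 7.31 over the nonirradiated arrays, with an averaged difference of -0.20 (95% interval -0.46 to 0.06, adjusted p = 0.451). Tlr12, a further mouse member with 1 row, averaged 4.81 in irradiated PTH, 4.83 in irradiated vehicle, 4.86 in nonirradiated PTH and 4.96 in nonirradiated vehicle arrays, with an averaged difference of -0.09 (adjusted p = 0.763). Tlr11 was not analysed here.

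The irradiation differences of all 9 members had the same sign in vehicle and PTH mice, a share that was 53.5% over all genes. The 2 comparisons use separate arrays but 1 estimate of each gene's spread. The 4 positive members were Tlr1, Tlr3, Tlr4 and Tlr6 and the 5 negative ones Tlr2, Tlr7, Tlr8, Tlr9 and Tlr13. The sign was not settled for all of them: the Tlr4, Tlr7 and Tlr8 differences, none of them called, crossed 0 under some alternatives.

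**Figure D3:**
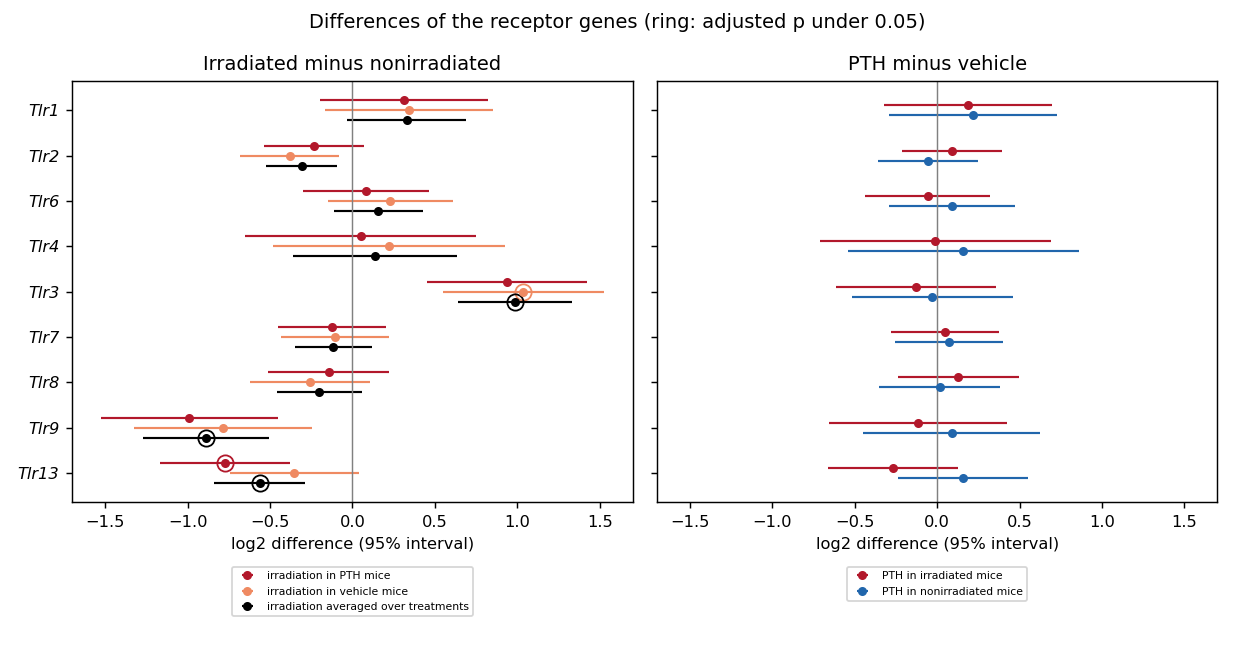
Log2 differences of the 9 receptor genes with 95% intervals, irradiated minus nonirradiated (left) and PTH minus vehicle (right). Rings mark adjusted p under 0.05: Tlr3 in vehicle mice and averaged, Tlr9 averaged, and Tlr13 in PTH mice and averaged, with no ring in the right panel. The sex term ends the ring of Tlr13 in PTH mice.

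PTH against vehicle was compared in each irradiation state, and in the irradiated state the arrays are the same ones that enter the irradiation differences. In irradiated mice 0 of 9 members were called by limma and 0 had an unadjusted p under 0.05, where 0% and 3.81% of all genes did. No member had groups that did not overlap, against 9.73% of all genes. The largest difference was that of Tlr13 at -0.26 (SE 0.181, 95% interval -0.66 to 0.13, adjusted p = 0.844). Tlr3 had 7.01 ± 0.449 with PTH and 7.13 ± 0.373 with vehicle (SD, n = 3 each), a difference of -0.13 (limma 95% interval -0.61 to 0.36). This interval uses a spread pooled over all 4 groups. The nonirradiated groups were less spread for Tlr3, so it may be too narrow for the irradiated ones. Tlr9 had 6.66 ± 0.354 with PTH and 6.77 ± 0.287 with vehicle (SD, n = 3 each), a difference of -0.12 (limma 95% interval -0.65 to 0.42).

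In nonirradiated mice PTH again gave 0 called members, with 0 at an unadjusted p under 0.05, where 0% and 1.79% of all genes passed, and 0 had groups that did not overlap, against 6.84%. The differences ran from -0.06 for Tlr2 to 0.22 for Tlr1, and the widest interval, that of Tlr4, ran from -0.54 to 0.86. All 3 nonirradiated PTH arrays had the female pattern of Xist and Kdm5d and all 3 nonirradiated vehicle arrays the male one, so that treatment and sex cannot be told apart there. The interaction of irradiation and PTH was called for 0 of 9 members, with 0 at an unadjusted p under 0.05 and 5.49% of all genes at that level.

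Each irradiated group held 1 female-pattern array, replicate 1, and that array had the lowest Tlr3 value of its group in both. With sex as a term, the Tlr3 difference was 1.25 in vehicle mice (adjusted p = 0.00278), 0.52 in PTH mice (adjusted p = 0.391) and 0.88 averaged (adjusted p = 0.000616). The fitted female minus male difference of Tlr3 was -0.63 (SE 0.158, unadjusted p = 0.00200, adjusted p = 0.804 by limma). Each nonirradiated group had a single sex pattern, so the term rests on replicate 1 against the other arrays of each irradiated group. A sex difference and a replicate difference cannot be told apart there. The raw means, 6.30 in female-pattern and 6.77 in male-pattern arrays, also differ in their share of irradiated arrays. Tlr9 (-0.84, adjusted p = 0.0172) and Tlr13 (-0.56, adjusted p = 0.0366) passed averaged over treatments with the same term. The Tlr13 call in PTH mice was lost with it (-0.78, SE 0.231, adjusted p = 0.235). The 3 X-linked members Tlr7, Tlr8 and Tlr13 had fitted female minus male differences of 0.022, 0.0076 and -0.00015, with SEs of 0.167, 0.186 and 0.200.

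In whole marrow, fewer cells of a type and less RNA per cell cannot be told apart, so the markers of cell types known to carry these receptors were read beside them. Of 14 measured B-lineage markers 13 fell and 0 rose averaged over treatments, and the mean of the list ranged from 6.81 to 7.32 in irradiated PTH and 7.23 to 7.60 in irradiated vehicle arrays, against 9.38 to 9.69 in nonirradiated PTH and 9.25 to 9.63 in nonirradiated vehicle arrays. Of 7 plasmacytoid dendritic cell markers 3 fell, Siglech (-1.56), Ly6d (-1.29) and Ccr9 (-1.34), and 0 rose. Called or not, 6 of these 7 averaged differences were negative and 1, that of Bst2, was positive. In vehicle and PTH mice Bst2 had 0.74 and 0.24, Pacsin1 -0.05 and -0.04, Cox6a2 -0.10 and -0.16, and Tcf4 -0.10 and -0.72. The mean of that list ranged from 6.57 to 7.19 and 6.92 to 7.25 in irradiated PTH and vehicle arrays, against 7.62 to 7.68 and 7.38 to 7.67 in the nonirradiated ones. Both lists were lower on all irradiated arrays, as was Tlr9, and their part in the Tlr9 difference was not tested.

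Of 8 conventional dendritic cell markers 2 rose, Xcr1 (1.33) and Clec10a (0.73), and 1 fell, Cd209a (-1.44). Called or not, 5 of these 8 averaged differences were positive and 3 negative. In vehicle and PTH mice Clec9a had 0.55 and 0.25 and Batf3 had 0.27 and 0.37. There Flt3 had -0.34 and -0.74 and Zbtb46 had -0.13 and -0.33, and none of these genes was called. The mean of that list ranged from 6.24 to 6.49 in irradiated PTH and 6.43 to 6.67 in irradiated vehicle arrays, against 6.29 to 6.44 in nonirradiated PTH and 6.20 to 6.38 in nonirradiated vehicle arrays. Xcr1, which marks the cross-presenting cells rich in Tlr3, lay at 5.53 to 6.83 in irradiated PTH and 6.66 to 7.29 in irradiated vehicle arrays, against 5.01 to 5.17 in nonirradiated PTH and 5.28 to 5.55 in nonirradiated vehicle arrays. Clec10a was dim, at 4.43 to 5.33 over the irradiated and 3.89 to 4.51 over the nonirradiated arrays, where the median gene averaged 6.48. Of 14 monocyte and macrophage markers 3 rose, C1qc (0.49), Cd5l (1.44) and Marco (0.81), and 0 fell, with a mean of the list from 8.39 to 9.13 and 8.97 to 9.16 in irradiated PTH and vehicle arrays, against 8.70 to 8.85 and 8.44 to 8.87 in the nonirradiated ones. By sign, called or not, 8 of these 14 averaged differences were positive and 6 negative. The part of conventional dendritic cells, monocytes and macrophages in the Tlr3 difference was not tested.

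Of 14 neutrophil markers 2 fell, Ly6g (-1.17) and Csf3r (-1.25), and 0 rose, with a mean of the list from 10.45 to 11.08 and 10.82 to 10.91 in irradiated PTH and vehicle arrays, against 11.17 to 11.51 and 10.97 to 11.15 in the nonirradiated ones. Among the other lists, 4 of 10 T and NK cell and 4 of 7 megakaryocyte and platelet markers fell, 1 of 6 erythroid markers fell, and 1 of 9 endothelial and 8 of 9 adipocyte markers rose. The part of these cells in the Tlr13 and Tlr2 differences was not tested. The labelled tissue was borne out by high values of the erythroid anion exchanger Slc4a1 and the neutrophil gene S100a8, whose group means were 12.3 to 12.6 and 12.0 to 12.4.

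**Figure D4:**
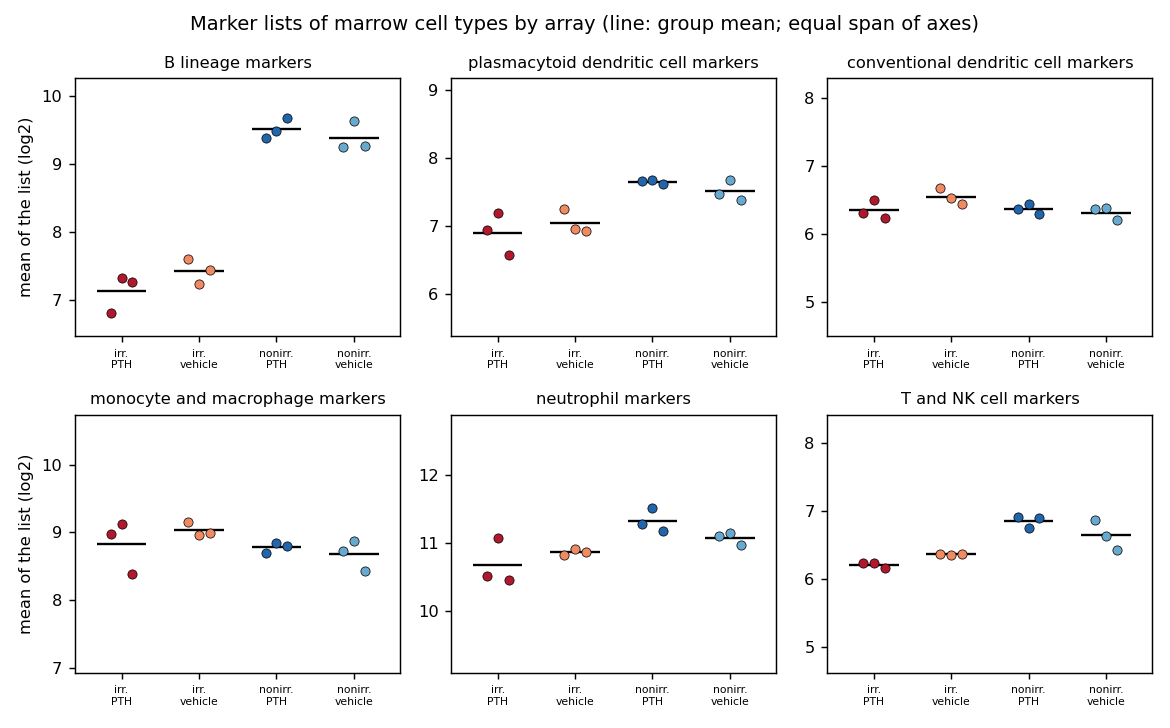
Mean log2 level of 6 marker lists (vertical axes, all of equal span) on the 3 arrays of each group (points), with the group mean as a line. B-lineage and plasmacytoid dendritic cell markers are lower on all irradiated arrays, as Tlr9 is, whereas the lists of conventional dendritic cells and of monocytes and macrophages overlap between the states.

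The other genes of the pathway were described from 8 lists, and where the text calls a gene here the comparison averaged over treatments is meant unless a treatment is named. Of 12 receptor partners and adaptors 2 fell and 0 rose, with a median difference of -0.02 against -0.01 over all genes. Cd180, a Tlr4 homologue of B cells that lacks a TIR domain, lay at 7.65, 8.34 and 7.60 in irradiated PTH arrays, against 8.99, 8.96 and 8.98 in nonirradiated PTH arrays, and averaged 8.02 ± 0.126 in irradiated vehicle and 9.17 ± 0.237 in nonirradiated vehicle arrays (SD, n = 3 each). It fell by 1.13 (SE 0.133, adjusted p = 0.000314), in vehicle mice by 1.14 and in PTH mice by 1.11. With sex as a term the Cd180 difference in PTH mice was -1.15, with adjusted p = 0.0519. Ticam2, the TRAM adaptor of Tlr4, fell by 0.53 (adjusted p = 0.0315). The Ticam2 call held in 5 of 12 fits that left out 1 array and was lost with sex as a term (-0.48, adjusted p = 0.0528).

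MyD88 itself, outside the rule for naming genes and named after its values were seen, had a difference of 0.41 (SE 0.163, adjusted p = 0.198), with 0.73 in vehicle and 0.10 in PTH mice. The Tlr3 adaptor gene Ticam1, likewise, had 0.00019 (SE 0.123, adjusted p = 0.999), with 0.17 in vehicle and -0.17 in PTH mice. The Tlr4 co-receptor genes Cd14 and Ly96, likewise, had 0.15 and 0.31, with adjusted p of 0.636 and 0.797.

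Of 11 genes for folding, trafficking and cleavage of the endosomal receptors, 3 fell and 2 rose, with a median of -0.05. Unc93b1, the chaperone that carries nucleic-acid receptors from the endoplasmic reticulum to endosomes, lay at 7.84, 8.21 and 7.20 in irradiated PTH arrays, against 8.77, 9.34 and 8.98 in nonirradiated PTH arrays. It lay at 8.34, 8.05 and 8.05 in irradiated vehicle arrays, against 8.42, 9.23 and 8.60 in nonirradiated vehicle arrays, so that all irradiated arrays were below all nonirradiated ones. Unc93b1 fell by 0.94 (SE 0.188, adjusted p = 0.0102), a call that held in 12 of 12 fits that left out 1 array. In PTH mice it fell by 1.28 (adjusted p = 0.0258), and in vehicle mice the difference was -0.61 (adjusted p = 0.348).

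Slc15a4, an endolysosomal transporter needed for Tlr7 and Tlr9 signalling, fell by 0.54 (adjusted p = 0.0205), and Cnpy3, a folding chaperone of several receptors, named after its values were seen, fell by 0.41 (adjusted p = 0.0452). The endolysosomal proteases Lgmn and Ctsl rose by 0.78 and 0.64 (adjusted p = 0.0257 and 0.0396). Of the fits that left out 1 array, Slc15a4 was called in 8, Lgmn in 4 and Ctsl in 2 of 12, with adjusted p up to 0.0587, 0.0669 and 0.0993. The Cnpy3 call, close to the threshold of 0.05, was not followed in these fits or with the sex term.

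Each of the lists of kinases, transcription factors and brakes held 1 called gene, where 6.1% of all genes were called. Of 12 kinases and ubiquitin ligases 1 fell, Peli1, a ubiquitin ligase acting on IRAK complexes (-0.52, SE 0.0753, adjusted p = 0.00126). Of 12 transcription factors 1 fell, Rel, the c-Rel subunit of NF-kB that is abundant in lymphocytes (-1.15, SE 0.136, adjusted p = 0.000314). Of 11 brakes on the pathway 1 fell, Tnfaip3, the NF-kB inhibitor A20 (-0.55, SE 0.113, adjusted p = 0.0122). No gene of these 3 lists rose, their medians were 0.0018, -0.16 and -0.14, and all 3 averaged calls held in 12 of 12 fits that left out 1 array. Peli1 and Rel fell in both treatments, but the Peli1 call in PTH mice (-0.46, adjusted p = 0.0459) held in 2 of 12 such fits. With sex as a term the Peli1 difference in PTH mice was still -0.46, with adjusted p = 0.254. Tnfaip3 fell in PTH mice (-0.80, adjusted p = 0.0212), and in vehicle mice its difference was -0.30 (adjusted p = 0.467).

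Of 20 cytokines and other genes known to be induced by these receptors 4 rose and 3 fell, with a median of 0.07. Il1b, which encodes interleukin-1 beta, fell by 2.54, and Il12a, which encodes a subunit of interleukin-12, fell by 1.15. Il6, which encodes interleukin-6, rose by 1.03, and Il1rn, which encodes the interleukin-1 receptor antagonist, rose by 0.67. Il6 was dim on all arrays, at 4.32 to 5.25 over the irradiated and 3.56 to 4.50 over the nonirradiated ones, where the median gene averaged 6.48. In single treatments Il1b and Il12a fell in both, Il6 rose in PTH mice (1.29, against 0.77 with adjusted p = 0.143 in vehicle mice) and Il1rn rose in vehicle mice (0.97, adjusted p = 0.0106, against 0.38 with adjusted p = 0.362 in PTH mice). The interaction of irradiation and PTH was called for no gene, these included.

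Among 11 other pattern receptors 1 rose and 2 fell, with a median of 0.07. Ifih1, which encodes MDA5, a cytosolic sensor of the same kind of ligand as Tlr3, rose by 0.90 (SE 0.129, adjusted p = 0.00122), with 1.21 in PTH mice (adjusted p = 0.00422) and 0.59 in vehicle mice (adjusted p = 0.147). Clec4d, a myeloid C-type lectin that binds mycobacterial glycolipid, fell by 2.52 (SE 0.182, adjusted p = 1.09e-05), and Nlrp3, an inflammasome sensor, fell by 0.59 (adjusted p = 0.0168).

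Several of the calls within PTH mice ended when sex was a term, where all 3 nonirradiated arrays had the female pattern and 1 of 3 irradiated ones did. Adjusted p was then 0.214 for Unc93b1, 0.254 for Slc15a4, 0.218 for Tnfaip3 and 0.141 for Il6, while Ifih1 was called at 0.0497. The differences with the term were -1.14 in place of -1.28 for Unc93b1 and -0.72 in place of -0.78 for Slc15a4. They were -0.65 in place of -0.80 for Tnfaip3, 1.08 in place of 1.29 for Il6 and 1.07 in place of 1.21 for Ifih1. Over all genes 200 were called in PTH mice with the term, against 485 without it. The calls without the term held in 7 of 12 fits that left out 1 array for Unc93b1, 5 for Slc15a4, 9 for Tnfaip3, 10 for Il6 and 12 for Ifih1. In vehicle mice the Lgmn call was lost with the sex term (1.02 in place of 1.14, adjusted p = 0.102) and held in 3 of 12 such fits. The Il1rn call passed with the term (adjusted p = 0.0312) and held in 9.

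**Figure D5:**
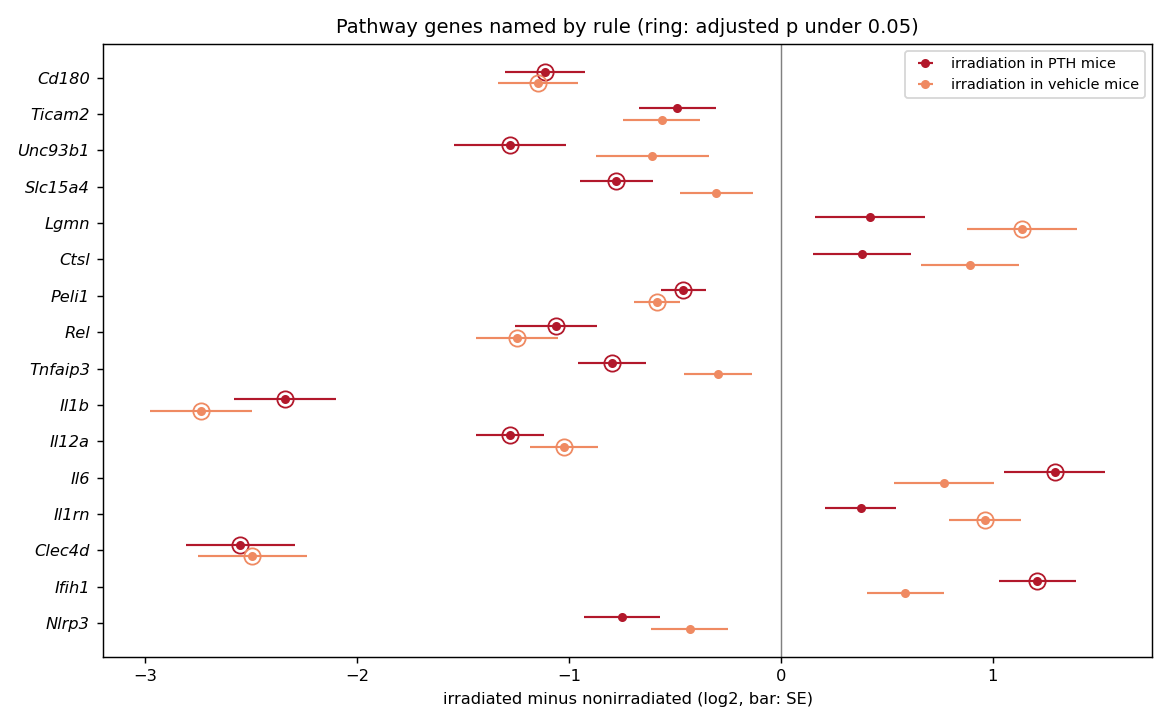
Irradiated minus nonirradiated log2 difference, with SE bars, of 16 further pathway genes in PTH and in vehicle mice. Rings mark adjusted p under 0.05. Il1b and Clec4d lie lowest. Unc93b1, Slc15a4, Tnfaip3, Il6 and Ifih1 carry a ring in PTH mice and not in vehicle mice, and Lgmn and Il1rn carry one in vehicle mice and not in PTH mice. The sex term ends the ring of Unc93b1, Slc15a4, Tnfaip3, Il6 and Lgmn, and the rings of Cd180 and Peli1 in PTH mice.

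The genes whose values most resembled each called member were searched among 17306 genes by Pearson's r over the 12 arrays, which share the split into irradiated and nonirradiated mice, and r is given as a description. For Tlr9 they were Dgkd, a diacylglycerol kinase (r = 0.978), Cerk, ceramide kinase (0.973), and Cd3e, a chain of the T cell receptor complex (0.972). Within the 6 irradiated arrays these were 0.963, 0.898 and 0.965, and within the 6 nonirradiated arrays 0.935, 0.948 and 0.851. For Tlr3 they were Zdhhc2, a palmitoyltransferase (0.957), Pdk3, a pyruvate dehydrogenase kinase (0.938), and Ifit3b, an interferon-induced gene (0.937).

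Within the irradiated arrays the 3 genes nearest to Tlr3 had r of 0.811, 0.861 and 0.911, and within the nonirradiated arrays 0.849, 0.764 and 0.207. For Tlr13 they were Snx25, a sorting nexin (0.940), Lilra6, a leukocyte immunoglobulin-like receptor (0.940), and Rnase6, a ribonuclease of myeloid cells (0.939), with 0.788, 0.896 and 0.738 in irradiated and 0.896, 0.901 and 0.899 in nonirradiated arrays. Averaged over treatments, Dgkd fell by 1.04, Cerk by 0.92 and Cd3e by 0.75 with irradiation, and Zdhhc2 rose by 1.47.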

How the data were processed

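The authors' deposited table holds log2 values for 35556 array rows and 12 arrays. Per the submitters' processing notes the tools were affy, RMA and limma, with no versions or roles. RMA corrects background, applies quantile normalization and summarises probes by median polish. The log2 scale is read from the values, and no source used here names a genome build. Rows with 1 symbol (21789) gave 19938 genes, with symbols updated through RefSeq's mouse table. The row with the highest mean stood for a gene with several. All 12 arrays were fitted as 4 group means with limma 3.58.1 in R 4.3.3 (8 residual degrees of freedom), and p-values were adjusted by Benjamini-Hochberg over all genes. Adjusted p under 0.05 was called, and "rose" and "fell" are used of called genes. The fit was tested on simulated data. The labels do not say whether arrays of a group come from separate mice, so the spread behind each p-value is that between these samples and may be technical.

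The members and lists were chosen with earlier results of these data known. All members were named. Of each of the 8 pathway lists the called genes were named, at most the 4 with the smallest p. Another 10 lists held cell type markers. The 3 nearest genes were named for each called member. Same-numbered arrays did not deviate together in every pair: correlations of deviations ran from -0.65 to 0.212 between irradiated and nonirradiated vehicle arrays and from -0.038 to 0.449 between the PTH ones, and from -0.167 to 0.557 between the nonirradiated groups. Between irradiated PTH and irradiated vehicle arrays all 3 were over 0.1 (0.144 to 0.570). The labels state no pairing and the main fit has no block. With the block, PTH in irradiated mice gave 0 called members, as without it. Interquartile ranges were narrowest in replicate 3 of irradiated PTH (2.88) and of nonirradiated vehicle (2.86), with the other arrays from 3.13. Sex was read from Xist and Kdm5d.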

Additional observations from a re-analysis of the deposited data

How the results depend on the processing

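Averaged over treatments, 2 to 4 members were called under all 22 alternatives run, with 4 under array weights and 2 when calls also needed a 1.5-fold difference. Under array weights 2517 of all genes were called in this comparison, against 1216 in the main fit. Tlr3 and Tlr9 were called in all 21 refits of this comparison and Tlr13 in 16. In single treatments the count of 1 was not stable. In vehicle mice it was 3 with array weights, where 1149 of all genes were called against 442 in the main fit. It was 0 with arrays centred on the median of all genes (505 of all genes), and 0 to 1 without any 1 array, with 0 in 8 of 12. In PTH mice, with the count of all genes called in brackets, it was 1 in the main fit (485) and 3 under array weights (1148). It was also 3 after dim genes were dropped (411 of 9969) and with the replicate number as a block (672). It was 2 after repeated quantile normalization (515), 0 with a sex term (200) and 0 when the other groups stayed out of the fit (232). It was 0 without both narrow-range arrays (435), and 0 to 1 without any 1 array, with 0 in 5 of 12. With the replicate block in PTH mice, Tlr3 (0.94, adjusted p = 0.0298) and Tlr9 (-0.99, adjusted p = 0.0161) passed beside Tlr13. The block changed no call of a member averaged over treatments or in vehicle mice. For PTH in either state and for the interaction the count was 0 under all alternatives run.

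Signs turned in differences that were never called. Tlr4 in vehicle mice was -0.013 without both narrow-range arrays and from -0.013 to 0.67 without any 1 array. Tlr4 in PTH mice was -0.23 with a sex term, -0.087 under array weights, -0.027 without both narrow-range arrays and from -0.098 to 0.17 without any 1 array. Averaged, Tlr4 was -0.020 without both narrow-range arrays. Tlr7 in vehicle mice ran from -0.23 to 0.034 and Tlr8 in PTH mice from -0.23 to 0.0052 without any 1 array. The cause was not tested. Tlr6 had no value with dim genes left out, and the averaged comparison and the interaction cannot be made from only the groups compared. The number of arrays limits precision: the median SE in vehicle mice was 0.166.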
